A study of Mus musculus with 6 samples.

Results

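The genes described here encode the 8 subunits of the condensin complexes, topoisomerase II alpha and Ki-67, 10 genes that were chosen by name: Smc2, Smc4, Ncapd2, Ncapg, Ncaph, Ncapd3, Ncapg2, Ncaph2, Top2a and Mki67. A probe set, the group of array probes that gives 1 value, was taken where its only annotated gene symbol was one of these names, which gave 26 probe sets of the 34945 with a single symbol, and 10 genes of 18193. The cells were V720, a line of mouse breast cancer cells labelled as mammary epithelium; the tumour's driver and the mouse strain were not given here. One group received vehicle and the other 1 µM PD0332991 (palbociclib), which blocks CDK4 and CDK6, the kinases that release cells from G1 by phosphorylating the retinoblastoma protein, both for 24 h in culture with serum. Each group held 3 arrays, 6 in all, and the study's design text calls the samples biological triplicates.

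Condensins are ring-shaped protein machines that extrude DNA loops and fold replicated chromosomes into compact rods for mitosis. Both complexes share the ATPase pair SMC2 and SMC4. Condensin I adds the kleisin CAP-H, which closes the ring, and the HEAT-repeat subunits CAP-D2 and CAP-G; it lies in the cytoplasm in interphase and reaches chromosomes once the nuclear envelope has broken down. Condensin II adds CAP-H2, CAP-D3 and CAP-G2, is nuclear throughout the cycle and begins compaction in prophase. Topoisomerase II alpha passes one DNA duplex through another, which untangles sister chromatids and works alongside condensin in shaping the chromosome. Ki-67 coats mitotic chromosomes and keeps them apart, and its antibody stain is the common clinical marker of proliferating breast cancer cells.

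All 10 genes fell with PD0332991, by unequal amounts. Mki67 was 4.01-fold lower, the condensin I subunits were 2.74-fold to 3.25-fold lower, and Top2a was 2.58-fold lower. Among the condensin II subunits Ncapg2 was 3.15-fold lower, while Ncapd3 was 1.74-fold and Ncaph2 1.30-fold lower. The question was which transcripts had changed once the kinases had been inhibited for 24 h. In a limma fit over all genes on log2(intensity + 16), with Benjamini-Hochberg adjustment and a threshold of 0.05, 10 of the 10 genes were called lower, where 11.2% of all 18193 genes were. At least 2-fold lower were 7 of the 10, against 1.15% of all genes. In all 10 genes every PD0332991 array lay below every vehicle array, as in 19.6% of all genes. The median log2 fold change of the 10 genes was -1.41, beside 0.00 for all genes, and all 10 were negative under every scaling tried.

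The promoter sequences of 6 genes are shown, picked with their changes known. Of the related genes among them, Ncapg, on its brightest probe set, and Ncapg2 changed by like amounts, and Top2a and Top2b by very different ones. The promoter of Ncaph, the counterpart of Ncaph2, is not printed. The sequences come from RefSeq (GRCm38.p6) and run from 250 bases before to 50 bases after an annotated transcript start, on the gene's own strand. Capitals mark 3 kinds of motif, each searched on both strands: the cell cycle homology region or CHR (TTTGAA or TTTAAA), which the DREAM and B-MYB-MuvB complexes bind in many mitotic genes, the CCAAT box (CCAAT), bound by NF-Y, and the E2F site (TTCCCGC or TTGGCGC or TTCGCGC). The promoters of the paired subunit genes Ncapg, at chr5:45669675-45669974 (plus strand), and Ncapg2, at chr12:116405186-116405485 (plus strand), which were 3.25-fold and 3.15-fold lower, stand first. That of Ncaph2, at chr15:89355469-89355768 (plus strand), belongs to the gene with the smallest fall of the 10.
Ncapg: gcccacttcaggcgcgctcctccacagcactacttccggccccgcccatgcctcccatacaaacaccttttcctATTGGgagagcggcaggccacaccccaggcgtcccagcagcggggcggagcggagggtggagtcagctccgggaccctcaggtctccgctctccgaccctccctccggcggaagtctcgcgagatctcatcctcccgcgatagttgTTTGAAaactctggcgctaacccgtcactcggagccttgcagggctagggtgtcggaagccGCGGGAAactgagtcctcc
Ncapg2: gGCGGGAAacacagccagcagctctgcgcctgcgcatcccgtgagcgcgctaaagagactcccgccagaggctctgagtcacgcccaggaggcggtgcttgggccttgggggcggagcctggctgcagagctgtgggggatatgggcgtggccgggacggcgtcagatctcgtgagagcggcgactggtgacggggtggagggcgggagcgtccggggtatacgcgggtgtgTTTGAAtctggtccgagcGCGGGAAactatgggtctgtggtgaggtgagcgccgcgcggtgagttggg
Ncaph2: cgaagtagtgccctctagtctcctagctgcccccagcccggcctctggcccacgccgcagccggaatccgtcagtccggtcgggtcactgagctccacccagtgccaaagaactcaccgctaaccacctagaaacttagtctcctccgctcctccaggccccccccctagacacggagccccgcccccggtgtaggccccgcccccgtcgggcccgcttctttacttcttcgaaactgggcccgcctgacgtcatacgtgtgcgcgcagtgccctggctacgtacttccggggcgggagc

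Top2a, at chr11:99024140-99024439 (minus strand), and Mki67, at chr7:135716330-135716629 (minus strand), are shown with Top2b, at chr14:16364956-16365255 (plus strand), the gene of the second topoisomerase II, which is made in dividing and resting cells alike.
Top2a: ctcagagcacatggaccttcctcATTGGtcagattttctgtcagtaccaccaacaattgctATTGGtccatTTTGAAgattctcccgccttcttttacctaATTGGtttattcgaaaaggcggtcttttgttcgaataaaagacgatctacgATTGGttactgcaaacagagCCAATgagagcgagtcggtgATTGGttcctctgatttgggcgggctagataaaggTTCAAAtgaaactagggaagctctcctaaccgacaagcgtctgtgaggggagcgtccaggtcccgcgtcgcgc
Mki67: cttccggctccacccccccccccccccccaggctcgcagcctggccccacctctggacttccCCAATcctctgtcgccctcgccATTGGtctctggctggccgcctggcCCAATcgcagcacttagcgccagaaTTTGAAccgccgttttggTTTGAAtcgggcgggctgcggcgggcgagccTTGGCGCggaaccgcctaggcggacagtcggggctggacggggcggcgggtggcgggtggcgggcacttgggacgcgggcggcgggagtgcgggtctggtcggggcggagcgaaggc
Top2b: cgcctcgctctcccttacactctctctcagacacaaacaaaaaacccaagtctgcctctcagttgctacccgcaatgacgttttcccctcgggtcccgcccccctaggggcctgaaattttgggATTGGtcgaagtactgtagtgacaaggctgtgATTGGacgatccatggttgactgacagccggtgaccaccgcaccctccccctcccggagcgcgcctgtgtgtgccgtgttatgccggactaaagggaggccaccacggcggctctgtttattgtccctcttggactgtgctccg

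The table of promoters matched 9 of the 10 genes, and Smc4 is named only. Of the 9, 6 held a CHR match in the first promoter, against 27.6% of all 32851 promoters in the table. An E2F match was in 6 of the 9, against 8.07% of all promoters. A CCAAT match was in 5, against 37.4%, and a GC box (GGGCGG on either strand), which is not in capitals above, in 8, against 35.7%. The CHR letters lay 30 to 25 bases before the start in Ncapg and 18 to 13 bases before it in Ncapg2. In Top2a one match lay 23 to 18 bases before the start, downstream of 6 CCAAT boxes, the most of any gene shown. Mki67 held 2 CHR matches, 3 CCAAT boxes and 1 E2F match. In the window of Ncaph2 none of the 3 capitalised motifs was found, and in that of Top2b there were 2 CCAAT boxes and neither of the others. Smc1a, a cohesin gene with a log2 fold change of -0.50, held 1 E2F match and 1 CCAAT box. Smc3, another cohesin gene, at -0.42, held none of the 3 capitalised motifs. Ncaph held an E2F match only, among those 3, although it fell 2.74-fold. A match in these letters describes the sequence and does not show binding.

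**Figure D1:**
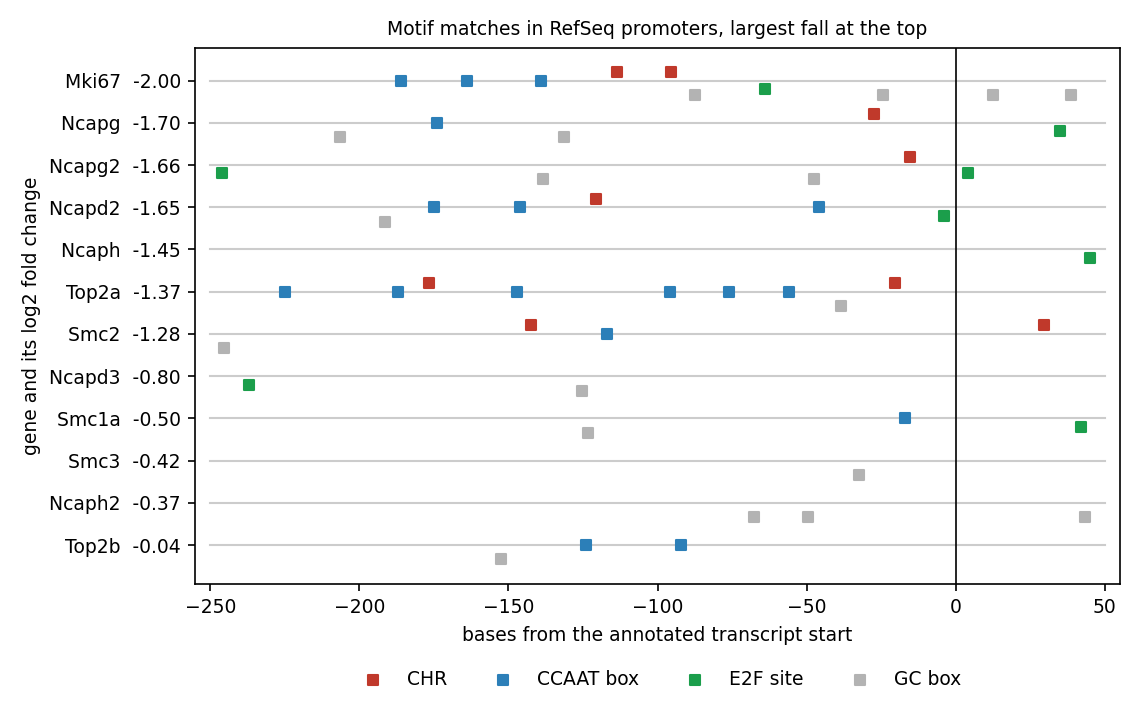
Position of motif matches in bases from the annotated transcript start (horizontal axis) for 9 of the 10 genes and for Top2b, Smc1a and Smc3, with the log2 fold change beside each name and the largest fall at the top; Ncapd3 is shown by the first of its 2 promoters. CHR matches (red) lie in 6 promoters, from Mki67 at -2.00 to Smc2 at -1.28, with none in Ncaph at -1.45 between them, and Ncaph2 at -0.37 shows GC boxes (grey) alone.

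Of the shared core, Smc2, one of the ATPase subunits, had intensities of 3143, 3182 and 3035 on the 3 vehicle arrays and 1251, 1274 and 1310 on the 3 PD0332991 arrays. Its log2 fold change was -1.28 (SE 0.04, 95% interval -1.37 to -1.18, limma adjusted p = 4.5e-05). The PD0332991 arrays kept 40.1% to 42.0% of the vehicle mean, a spread far narrower than the gap between the groups. Smc4, its partner in the ring, had 3789, 3975 and 3857 with vehicle and 1956, 2015 and 1967 with PD0332991. The level was thus 1.95-fold lower (a log2 difference of -0.96, SE 0.04, limma adjusted p = 5.62e-05), and 50.5% to 52.0% of the vehicle mean remained. All 5 probe sets of Smc2 and all 3 of Smc4 were called lower. The log2 fold changes of the Smc2 probe sets ran from -1.50 to -0.88, the smallest at the dimmest, whose vehicle mean was 124.8, and those of Smc4 from -1.10 to -0.95.

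The 3 genes particular to condensin I fell together. Ncapg, a HEAT-repeat subunit, had intensities of 1476, 1576 and 1511 with vehicle and 410.8, 489.4 and 475.2 with PD0332991. It was 3.25-fold lower (log2 fold change -1.70, SE 0.07, limma adjusted p = 8.27e-05), and its dimmer probe set fell from 662.1 ± 43.9 to 153.2 ± 10.2 (SD, n = 3 each), a log2 fold change of -2.00. Ncapd2, the other HEAT-repeat subunit, had 1195, 1227 and 1148 with vehicle and 342.0, 390.9 and 375.8 with PD0332991. Its log2 fold change was -1.65 (SE 0.06, limma adjusted p = 4.92e-05), and -1.06 on a second, dimmer probe set. In both genes the gap between the groups was many times wider than the spread within either group. Ncaph, the kleisin that closes the condensin I ring, had 1979, 2086 and 1885 with vehicle and 698.8, 699.8 and 741.0 with PD0332991 (log2 fold change -1.45, SE 0.05, limma adjusted p = 4.59e-05). The brightest Ncaph probe set is of a type whose probes can match other transcripts, and the other one, which is not, gave -1.48.

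On the brightest probe set of each, the 3 genes particular to condensin II fell by amounts whose 95% intervals do not overlap. Ncapg2, the counterpart of Ncapg, had intensities of 1329, 1396 and 1351 with vehicle and 399.1, 448.5 and 413.9 with PD0332991, so that 29.4% to 33.0% of the vehicle mean remained (log2 fold change -1.66, SE 0.05, limma adjusted p = 4.5e-05). It had a single probe set. Ncapd3, the counterpart of Ncapd2, had 1064, 1037 and 953.5 with vehicle and 574.2, 579.9 and 582.7 with PD0332991. Its log2 fold change was -0.80 (SE 0.05, limma adjusted p = 0.000316), and its dimmer probe sets gave -0.83 and -0.58. The 95% interval of the dimmest, -0.87 to -0.29, overlapped those of the Ncaph2 probe sets. Of the vehicle level of Ncapd3 56.4% to 57.2% remained, more than on any array for Ncapg2. Ncaph2, the kleisin of condensin II, had 1434, 1592 and 1539 with vehicle and 1175, 1143 and 1191 with PD0332991. This was the smallest fall of the 10 genes (log2 fold change -0.37, SE 0.05, 95% interval -0.50 to -0.25, limma adjusted p = 0.00513), with 75.1% to 78.3% of the vehicle mean left. All 4 Ncaph2 probe sets were called lower, with log2 fold changes between -0.43 and -0.31. The brightest probe sets of Ncapd3 and Ncaph2 are of types whose probes can match other transcripts. Without these types the log2 fold changes were -0.83 for Ncapd3 and -0.43 for Ncaph2.

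Top2a, topoisomerase II alpha, had intensities of 4584, 4646 and 4825 on the vehicle arrays and 1678, 1886 and 1864 on the PD0332991 arrays. The log2 fold change was -1.37 (SE 0.06, 95% interval -1.51 to -1.23, limma adjusted p = 7.36e-05). PD0332991 replicate 1 was the lowest array, at 35.8% of the vehicle mean, and the other two lay near 40%. A second probe set gave a log2 fold change of -1.29, with 421.0 ± 6.38 for vehicle and 162.4 ± 2.51 for PD0332991 (SD, n = 3 each). The third was dim, at 7.88 ± 2.61 and 3.48 ± 0.679 (SD, n = 3 each), and was the only one of the 26 probe sets not called (log2 fold change -0.29, limma adjusted p = 0.0719). Mki67, which encodes Ki-67, had 4099, 4319 and 4171 with vehicle and 955.2, 1063 and 1093 with PD0332991 on its single probe set. Its log2 fold change was -2.00 (SE 0.06, 95% interval -2.15 to -1.85, limma adjusted p = 4.5e-05), the lowest of the 10 genes and rank 6 from the bottom among all 18193. In order of rank from the bottom, Ncapg stood at 52, Ncapg2 at 57, Ncapd2 at 59, Ncaph at 98, Top2a at 121, Smc2 at 134, Smc4 at 220, Ncapd3 at 275 and Ncaph2 at 859.

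**Figure D2:**
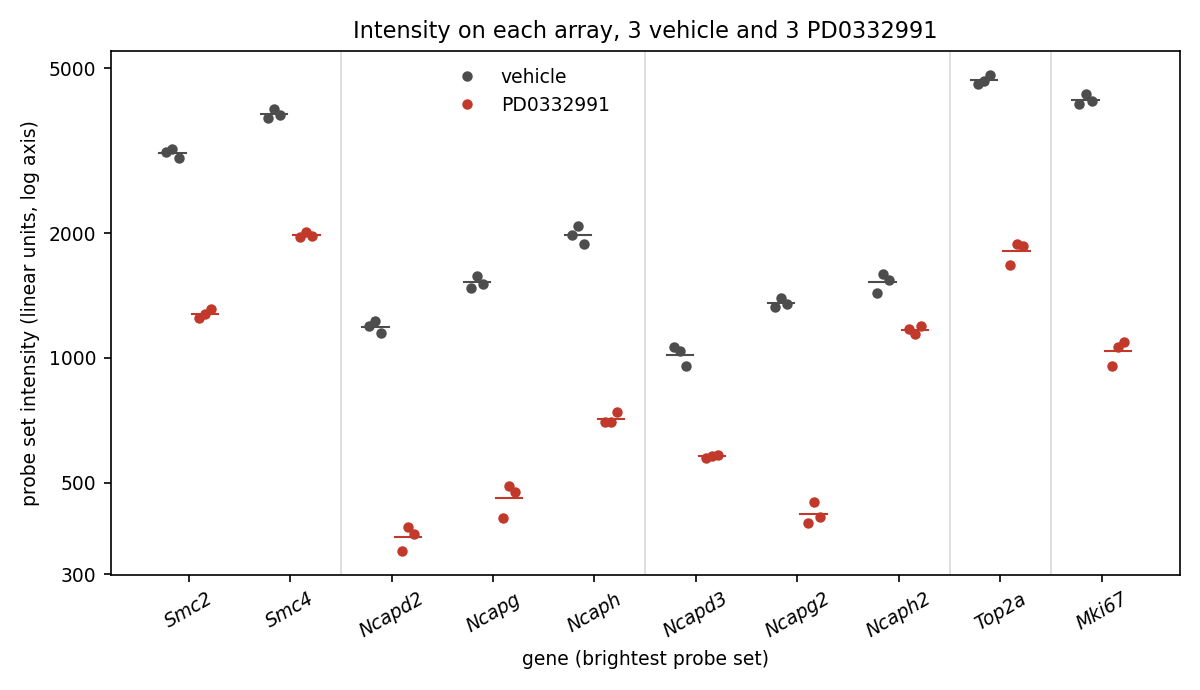
Probe set intensity (vertical log axis, linear units) of the 10 genes on each vehicle (grey) and PD0332991 (red) array, points being arrays and lines group means of 3. No gene's groups overlap; the gap is widest for Mki67, with 22.8% to 26.0% of the vehicle mean left, and narrowest for Ncaph2, with 75.1% to 78.3%.

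Fitted probe set by probe set over all 34945, 25 of the 26 probe sets were called lower, where 9.70% of all probe sets were. The log2(intensity + 16) scale understates the change of dim probe sets. The dimmest Smc2 probe set kept 48.4% of its vehicle mean and the dim Ncapd2 one 44.2%, beside 33.7% and 31.1% for the lowest of each gene. Probe sets of one gene thus differed in size of change, and within Ncaph2 and Smc4 they lay close together.

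**Figure D3:**
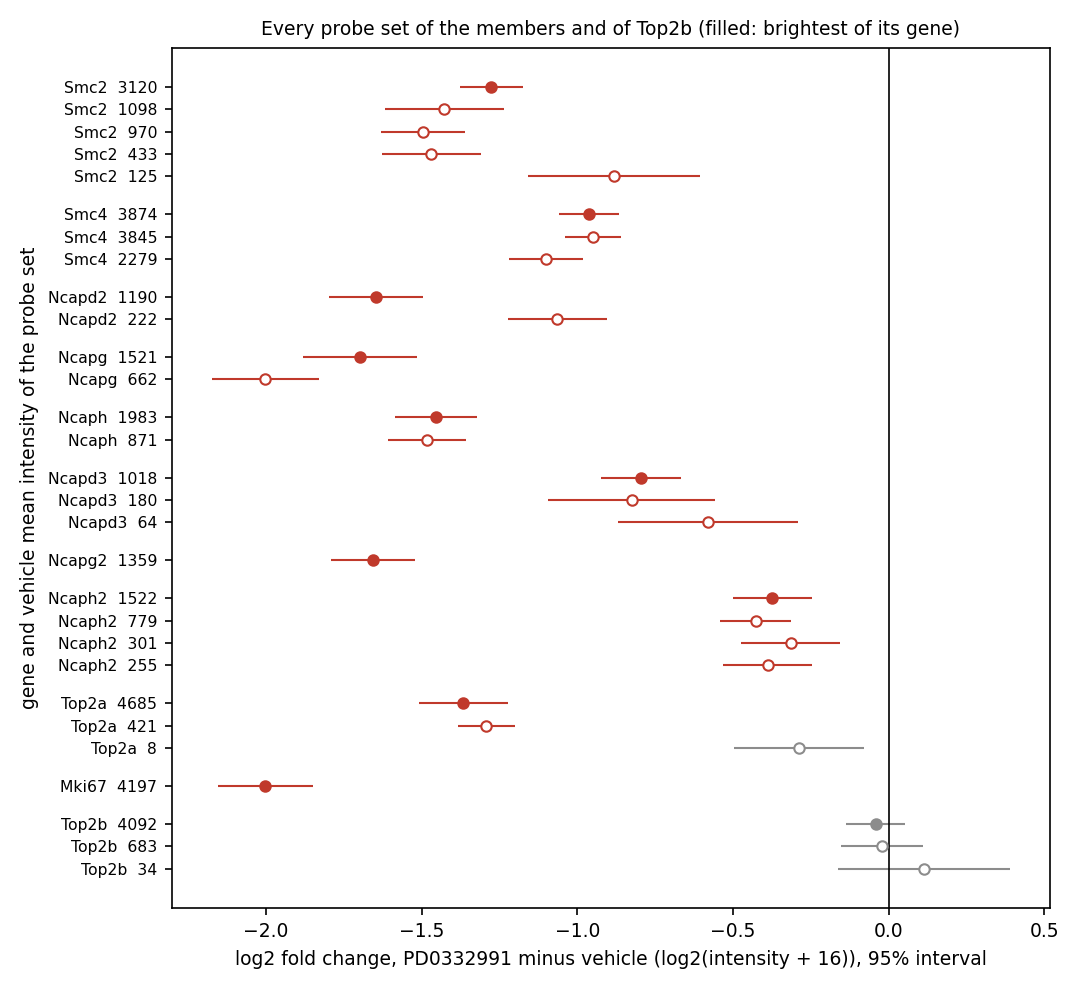
Log2 fold change with its 95% interval for each of the 26 probe sets and for the 3 of Top2b (vertical axis: gene and vehicle mean intensity of the probe set); filled points are the brightest of a gene, red marks a call at an adjusted p below 0.05, and grey none. Every Ncaph2 probe set lies between -0.43 and -0.31, and the 3 Top2b probe sets lie around 0.

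Subunits that take the same place in the 2 condensins were compared on each array, as the log2 difference of the pair, which cancels any scaling of a whole array. Of the 7 pairs of related genes compared, 6 had groups that did not overlap, and for these the exact two-sided permutation test gave p = 0.1, the smallest that 3 arrays against 3 allow (0.117 after Benjamini-Hochberg adjustment over the 7). No pair could therefore pass 0.05. The kleisin pair moved apart: Ncaph fell by 1.08 more than Ncaph2 (log2, SE 0.05), and the 3 PD0332991 arrays lay at -1.11, -1.07 and -1.05 relative to the vehicle mean of the pair. Ncapd2 fell by 0.85 more than Ncapd3 (SE 0.06), with PD0332991 arrays at -0.94, -0.77 and -0.83. For Ncapg and Ncapg2 the difference was -0.04 (SE 0.04, exact two-sided permutation p = 0.5, 0.5 adjusted), the PD0332991 arrays lying at -0.12, -0.04 and 0.03 and overlapping the vehicle arrays. It was -0.19 with probe set means and -0.08 without PD0332991 replicate 3, each with p = 0.1 in that exact permutation test. Within the shared core Smc2 fell by 0.31 more than Smc4 (SE 0.03), and the difference was also -0.31 with probe set means. The SE of a pair covers the spread of arrays for 1 probe set of each gene. Across probe sets the log2 fold changes of Smc2 (-1.50 to -0.88) and Smc4 (-1.10 to -0.95) overlapped.

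The remaining pairs set the genes beside relatives outside the condensins. Top2a fell by 1.32 more than Top2b (SE 0.05), and Top2b itself was at 4092 ± 14.9 and 3973 ± 100.3 (SD, n = 3 each, log2 fold change -0.04, SE 0.04, limma adjusted p = 0.471). Its groups overlapped, as they did for both of its dimmer probe sets. Smc2 fell by 0.86 more than Smc3 (SE 0.06), and Smc4 by 0.46 more than Smc1a (SE 0.04). Smc3 and Smc1a are the ATPases of cohesin, the ring that holds sister chromatids together, and had log2 fold changes of -0.42 (limma adjusted p = 0.00423) and -0.50 (limma adjusted p = 0.00141).

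**Figure D4:**
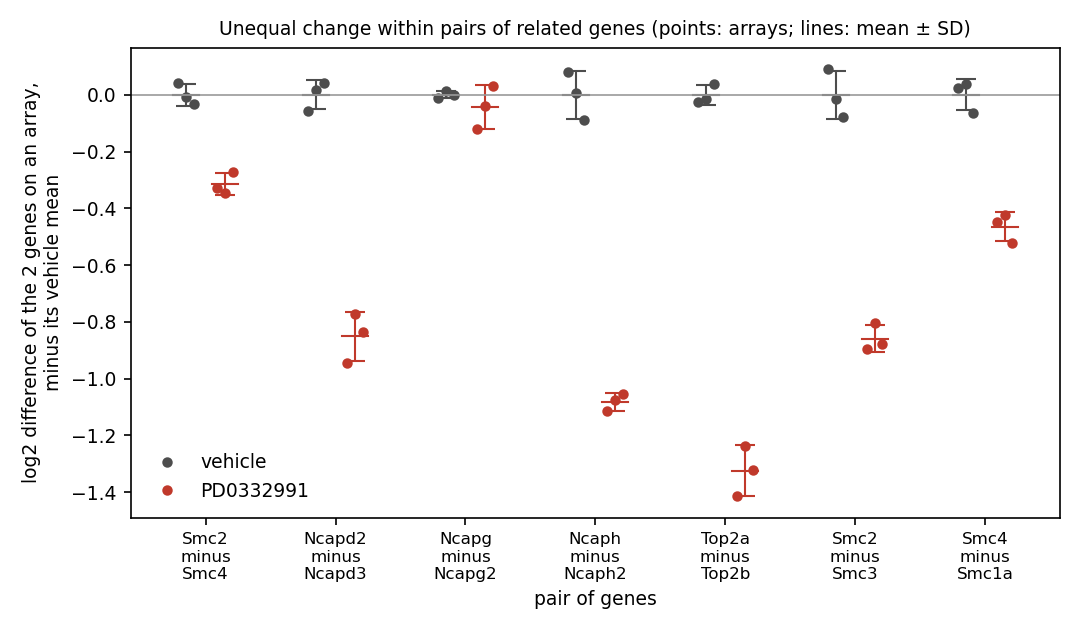
Log2 difference between the genes of each pair on each array, minus its vehicle mean (vertical axis), for vehicle (grey) and PD0332991 (red); points are arrays and lines the mean ± SD of 3. The PD0332991 arrays lie below all vehicle arrays in 6 pairs, by -1.32 on average for Top2a minus Top2b, and overlap them for Ncapg minus Ncapg2 (-0.04).

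Of 9 measured genes whose products load, phosphorylate or restrain condensin, 6 fell and none rose, with a median log2 fold change of -0.97, beside 0.00 for all genes, of which 11.2% were called lower. Aurkb, the Aurora kinase that helps bring condensin I to chromosomes, was 3.45-fold lower, at 869.5 ± 20.4 and 241.1 ± 18.0 (SD, n = 3 each, limma adjusted p = 4.55e-05). Its probe set is of a type whose probes can match other transcripts. Without the 2 such types Aurkb had no probe set left and was not tested. Of the other genes of this list 5 fell, with a median of -0.67. Ccnb2, a B-type cyclin that pairs with CDK1, was 3.37-fold lower (limma adjusted p = 6.81e-05). The 3 genes that were not called, named after their values were seen, were Akap8, which encodes an anchoring protein that binds condensin (log2 fold change -0.12), Ppp2ca, a catalytic subunit of phosphatase 2A (-0.03), and Csnk2a1, a catalytic subunit of casein kinase 2 (0.02). Akap8 was called lower with a pseudocount of 64, the dim filter, trend and robust moderation, or probe set means (-0.24 there). The 6 calls became 5 without vehicle replicate 1 or 2 and at an adjusted p of 0.01, and 4 with a 2-fold minimum. All 4 genes of the chromosomal passenger complex, the Aurora B assembly that acts at centromeres, fell by log2 fold changes of -1.79 to -1.41, Cdca8, encoding borealin, being 3.28-fold lower. The Cdca8 and Incenp values are also from probe sets whose probes can match other transcripts. Without the 2 such types Aurkb again had no probe set, and the other 3 genes were all called lower, with a median of -1.49.

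Of 12 genes of Ki-67's binding partners and of the chromosome periphery, 5 fell and none rose, with a median of -0.17, where 11.2% of all genes were called lower. The count was 8 after quantile normalization, 9 with trend and robust options, 3 after centring on the spike-ins and 1 with a 2-fold minimum. Cdca2, which encodes Repo-Man, a relative of Ki-67 in how it binds protein phosphatase 1, was 3.32-fold lower, at 600.0 ± 19.7 and 169.9 ± 11.4 (SD, n = 3 each, limma adjusted p = 4.5e-05). Cbx3, encoding a heterochromatin protein 1, was 1.53-fold lower on a dim probe set (limma adjusted p = 0.00221). Of the other DNA topoisomerases and the enzymes that remove their adducts, 2 of 7 fell and none rose, with a median of -0.04, the share over all genes being 11.2%. They were the adduct-repair genes Tdp1 (log2 fold change -0.53, limma adjusted p = 0.00798) and Tdp2 (-0.26, limma adjusted p = 0.0142), with 1 called when PD0332991 replicate 2 was left out and none with a replicate block. Of 13 genes of other SMC complexes 9 fell and none rose, with a median of -0.33 and a range of -0.54 to 0.08. The highest, Smc6 at 0.08, was called higher with limma's trend and robust options and lower, at -0.39, with the mean of its probe sets. In this list 10 fell and 1 rose with trend and robust options. The count lower was 7 after spike-in centring, with a replicate block and at an adjusted p of 0.01, and 0 with a 2-fold minimum. Nsmce4a, of the SMC5/6 complex, was 1.42-fold lower (limma adjusted p = 0.000418) and Rad21, the cohesin kleisin, 1.44-fold (limma adjusted p = 0.000809). In the main fit no gene of these 5 lists rose at an unadjusted limma p under 0.05 (0 genes). The lowest of the 13, at -0.54, lay above 9 of the 10 genes described here and below Ncaph2.

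The genes nearest to Mki67 in pattern over the 6 arrays, by the root mean square difference of log2 values centred on each gene's mean, were Aspm, of the spindle poles (0.02), Cdkn3, a phosphatase acting on CDKs (0.03), and Kif20a, a mitotic kinesin (0.05). Those nearest to Top2a were Dlgap5, a spindle protein (0.02), Pttg1, which encodes securin (0.03), and Birc5, which encodes survivin (0.03). With 2 groups of 3 arrays, genes near by this measure are those with a like difference between the groups. It was -2.00, -2.03 and -1.98 for the first 3 and -1.34, -1.40 and -1.41 for the others.

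The arrays were at a like level, with median intensities of 69.6 to 72.7, and arrays of a group correlated at 0.9969 to 0.9973 across genes. Limma called 21.0% of the 18193 genes, 1785 higher and 2035 lower (3820 in all; 2538 when vehicle replicate 1 was left out, 2497 when vehicle replicate 3 was, and 2522 when PD0332991 replicate 2 was). Higher genes made up 46.7% of calls, 56.9% after centring on array medians, and 14.0% after centring on 9 hybridization spike-in probe sets, which moved the median of all genes to -0.12. Vehicle replicate 1 had the lowest spike-in mean, 9.74 on the log2 scale against 9.94 to 10.05 on the other 5 arrays, and without it that median was -0.04. Luminal keratin and adhesion genes were bright, Krt8 at 9981 ± 105.0 and Epcam at 9635 ± 165.6 with vehicle (SD, n = 3 each), while Krt19 and Krt14 were dim, at 1 and 28.7. Of 8 epithelial markers Krt7 alone was called, higher, and the call was lost after spike-in centring, with a replicate block, at an adjusted p of 0.01 and when replicate 2 of either group was left out. With trend and robust moderation 3 of the 8 were called higher, Krt8 (0.09) among them. Of markers of other cell types, 1 of 8 fibroblast genes fell (Pdgfra, -0.52), none of 5 endothelial and none of 3 adipocyte genes was called by limma (also 0 at an unadjusted p under 0.05), those of smallest p being Kdr, Pecam1, Adipoq and Fabp4 (limma adjusted p = 0.234, 0.340, 0.297 and 0.572), and 3 of 6 leukocyte genes rose, among them Cd68 (0.40) and Ptprc (0.31). With the mean of each gene's probe sets Pdgfra was not called and Col3a1 was, higher (0.27); Thy1 was also called, lower (-0.27), with a replicate block, and Pecam1, higher (0.24), when PD0332991 replicate 1 was left out. Their summed intensity was 356.4 to 402.8 and 311.6 to 345.1 for fibroblast genes and 2058 to 2119 and 2291 to 2408 for leukocyte genes, with vehicle and PD0332991. Most of the leukocyte sum was Cd14, at 1740 ± 39.1 and 1905 ± 73.2 (SD, n = 3 each), which was not called (limma adjusted p = 0.0943). The pan-leukocyte gene Ptprc was at 11.6 ± 1.67 with vehicle and 18.2 ± 1.02 with PD0332991 (SD, n = 3 each), Cd3e was near 0, and 1 leukocyte gene rose when PD0332991 replicate 2 or replicate 3 was left out and none after spike-in centring. The part of such cells in the falls described was not tested. In a bulk sample, fewer cells in the cycle and less RNA per cell cannot be told apart.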

How the data were processed

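Total RNA was biotin-labelled by the Affymetrix procedure, per the labels' protocols. The values are the authors' deposited table of 1 linear intensity per probe set and array; the sources used here do not state how it was summarised or scaled, and scaling would hide a change in total RNA per cell. Of 45101 probe sets, 64 controls were left out, 34945 had 1 symbol in the platform annotation (which can be old), 932 several and 9160 none. A gene was represented by its probe set of highest mean log2 value. Log2(intensity + 16) values were compared with lmFit and eBayes of limma 3.58.1 (R 4.3.3), with no filter or block and Benjamini-Hochberg adjustment over 18193 genes or, separately, 34945 probe sets; the procedure was tested on simulated data. Pairs of genes used an exact permutation test. Promoters and plots used Python 3.11.15, pandas 2.3.3 and matplotlib 3.10.9. Members, pairs, gene lists, motifs and alternatives were chosen with earlier results of these data known. Genes named were the 10 members, those of each pair, the 3 most like Top2a and Mki67, and per list up to 2 called genes of smallest p in each direction, or 2 where none was called; Ccnb1, Rad21l and Plin1 were not analysed here, and 1 other listed gene is not reported here. Smc6, Incenp and the marker genes Krt8, Epcam, Krt19, Krt14, Col3a1, Thy1, Cd14 and Cd3e were named after their values were seen. Alternatives were 3 normalizations (quantile, median, spike-in), pseudocounts of 1 and 64, a dim filter at a mean intensity of 50, probe set means, trend and robust moderation, array weights, a replicate block, each array left out, stricter thresholds and, added after seeing the data, an analysis without the 2 probe set types that may cross-hybridize to other transcripts. The number of arrays limits the precision.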

Additional observations from a re-analysis of the deposited data

How the results depend on the processing

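All 10 genes were called lower under every alternative except a 2-fold minimum, where 7 were, Smc4, Ncapd3 and Ncaph2 falling short. Their largest adjusted p was 0.037 (Ncaph2, replicate block). Of the 26 probe sets, 15 passed the 2-fold minimum, and 23 to 25 were called when each array was left out in turn. The share of all probe sets called lower, 9.70% in the main fit, is not given for these settings or for the block below. Of all genes, 1.15% were called at least 2-fold lower. The count of all genes called, 3820, was 1715 with arrays centred on the spike-ins, 1571 with that centring but not vehicle replicate 1, 1703 at an adjusted p of 0.01, 238 with the 2-fold minimum, and 2497 to 2683 when each array was left out. With the replicate number as a block it was 2047, and 1152 of these were lower; deviations of same-numbered arrays correlated at 0.01, -0.05 and 0.05, so that the numbers were not taken to pair the arrays. The block left 10 of the 10 genes and 23 of the 26 probe sets called lower, and gave a smallest possible p of 0.25 for the gene pairs. The causes of these shifts were not tested. Every pair difference kept its sign. The kleisin pair ranged from -1.12 to -1.04 and Ncapd2 minus Ncapd3 from -0.89 to -0.62, the latter with probe set means. Top2a minus Top2b ranged from -1.37 to -0.999, the latter with probe set means. Ncapg minus Ncapg2 ranged from -0.19 to 0.00. Dim probe sets, such as that of Top2a below an intensity of 11, limit what can be called.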

Other observations

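PD0332991 replicate 1 was the lowest of the 3 PD0332991 arrays for 9 of the 10 genes, and for 43.2% of the 2035 genes called lower. The exception was Ncaph2, lowest on PD0332991 replicate 2. Vehicle replicate 2 was the highest vehicle array for 8 of the 10 genes, and for 45.1% of the genes called lower; Ncapd3 was highest on vehicle replicate 1 and Top2a on vehicle replicate 3. The second annotated promoter of Ncapd3 held 2 CHR matches, one of them beside a run of A, and no E2F or CCAAT match, while its first promoter held 1 E2F match.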
